A study of Mus musculus with 4 samples.

Results

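Messenger RNA was compared between GFP-positive and GFP-negative cells sorted from a clonal mouse embryonic stem cell (ESC) line in which a Zscan4c promoter drives GFP alone. Each population is 1 library. The comparison covers the 8904 of 24190 gene symbols that were at 5 TPM or more in either library and above 0 in both. TPM is a transcript level scaled by transcript length and by the sum over the library, so it is a share of the library and moves with what the library's other transcripts do. The parental cells are the E14 line (ES-E14TG2a) of male mouse ESCs, cultured in serum-free N2B27-based medium with the MEK inhibitor PD0325901 and the GSK3β inhibitor CHIR99021. Per the labels, GFP-negative cells are pluripotent and GFP-positive cells are 2C-like; they are called reporter-negative and reporter-positive cells below. No Zscan4c protein is added in this line, so the contrast is between states that arise in the culture by themselves. The series holds 4 libraries: the other 2 are the same sorted populations of a second line, in which the promoter drives a fusion of GFP to Zscan4c (the fusion line). Both lines share the parental cells and the medium, and each is 1 clone, so a property of the clone cannot be told apart from one of the reporter.

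Mouse ESC cultures contain a small and shifting fraction of cells that transcribe genes otherwise active in the 2-cell embryo, when the zygotic genome is first switched on. The double homeodomain factor Dux binds the promoters of many of these genes, and the Zscan4 zinc finger proteins, which act in telomere maintenance, are among its targets. Cells in this state are known to carry less Pou5f1 protein than other ESCs although Pou5f1 mRNA is kept.

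The reporter-negative library of the GFP line differed from the other 3 as a whole. In it 48.4% of symbols were listed at 0, against 11.8% in the reporter-positive library of the line and 19.5% and 11.6% in the reporter-negative and reporter-positive libraries of the fusion line. Among 4594 genes with 3 or more listed transcripts, the median share of a gene's transcripts above 0 was 50% in that library, against 100%, 91.7% and 100% in the others in the same order. Of 11062 symbols at 5 TPM or more in either GFP-line library, 2137 were listed at 0 in reporter-negative and 21 in reporter-positive cells. These were left out, since a listed 0 is not shown to be absence. The fusion line's values are therefore given beside those of the GFP line for the genes and lists that the results turn on. The tables hold no read counts, so depth is unknown and no counting error can be attached, and with 1 library per population there is no replicate error and no test. Ratios are log2((TPM + 1)/(TPM + 1)), reporter-positive over reporter-negative, and understate differences of low genes.

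Of the 8904 genes, 1539 (17.3%) were 2-fold or more higher in reporter-positive cells, 806 (9.05%) were 2-fold or more lower and 6559 (73.7%) lay within 2-fold. The median log2 ratio was -0.0061 and the standard deviation across genes 1.26. At 4-fold the counts were 697 higher and 380 lower. The minimum of 5 TPM shaped both tails: 919 of the higher genes were under 5 TPM in reporter-negative cells and passed through the reporter-positive library, and 538 of the lower genes passed through the reporter-negative library. At the boundary, Taf13 was included at 1.29 and 5.00 TPM, and 5730507C01Rik was left out at 2.56 and 4.999 TPM. The split between higher and lower genes (65.6% of those 2-fold apart were higher) depended on the settings. It was 81.6% with genes listed at 0 kept, 80.4% among protein-coding genes, 42.5% among genes whose transcripts are all 2 kb or shorter, 34.7% when each gene was represented by its highest transcript and 27.4% after quantile normalization, which also shifted the median over all genes from -0.0061 to -0.27 on the log2 scale. Medians of gene lists below are best read relative to the median of all genes. The counts of each list are likewise best read beside the 17.3% higher and 9.05% lower of all measured genes.

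**Figure D1:**
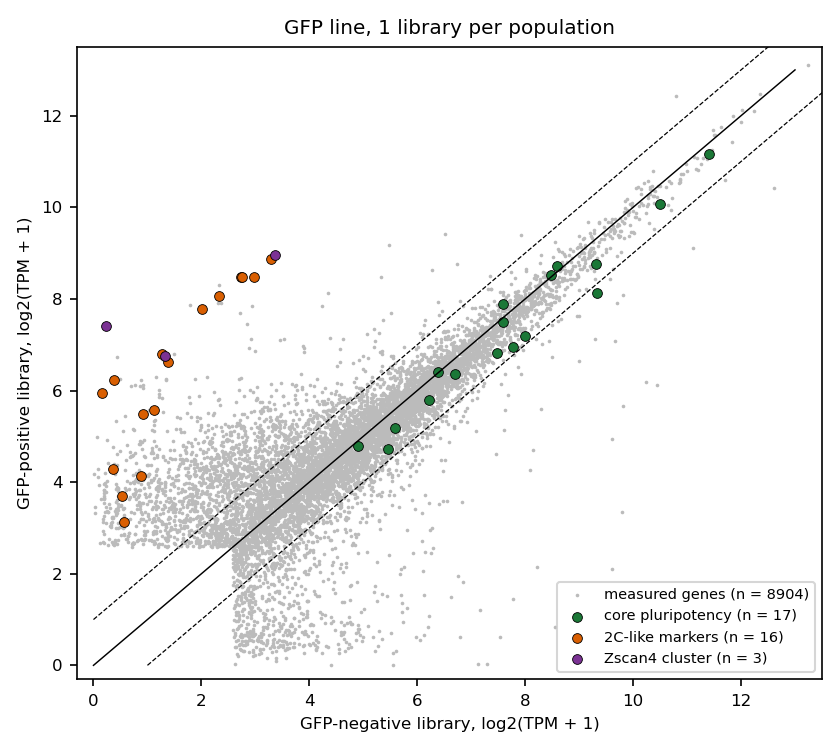
Level of each measured gene in the reporter-negative (x axis) and reporter-positive (y axis) library of the GFP line, both as log2(TPM + 1), with equality as a solid line and 2-fold as dashed lines. The 3 Zscan4 genes and 16 2C-like markers lie far above the upper dashed line, and the 17 core pluripotency genes lie near the diagonal, with 1 (Tdgf1) below the lower dashed line.

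The reporter's own gene separated the populations. Zscan4c, in the Zscan4 cluster on chromosome 7 (GRCm38 chr7:11005745-11010547, plus strand), was at 9.24 TPM in reporter-negative and 497 TPM in reporter-positive cells, a 53.8-fold ratio of levels. Zscan4f was at 0.174 and 170 TPM and Zscan4d at 1.504 and 108 TPM. The copies Zscan4b and Zscan4e were listed at 0 in reporter-negative cells and stood at 52.7 and 146 TPM in reporter-positive cells. Summed over the 5 listed Zscan4 genes, the level was 10.9 TPM in reporter-negative and 973 TPM in reporter-positive cells. In the fusion line the sums were 9.73 and 1728 TPM, so the reporter-negative libraries were alike in the summed level and the reporter-positive level was higher where the fusion was expressed. The order of the copies differed too. In reporter-positive cells of the GFP line Zscan4c led Zscan4f, Zscan4e, Zscan4d and Zscan4b, whereas in the fusion line Zscan4f, Zscan4c, Zscan4d and Zscan4e lay between 359 and 369 TPM. The copies are nearly identical, so the division of reads between them is uncertain. The sum does not depend on that division within the listed genes. Whether reads of the fusion transcript were counted as Zscan4c cannot be read from the tables.

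Duxf3, the listed Dux gene, was at 0.134 TPM in reporter-negative and 7.72 TPM in reporter-positive cells, and at 0.378 and 7.36 TPM in the fusion line. Its level in reporter-positive cells was therefore similar with and without the fusion protein, by 1 library each. It is near the minimum of 5 TPM, and the other 4 Dux-related genes with a row were under 5 TPM in both libraries. Over the 5 genes the summed level was 0.207 and 22.4 TPM in the GFP line and 2.26 and 34.7 TPM in the fusion line. Rows listed at 0 enter these sums as 0. They were 3 of the 5 in reporter-negative cells of the GFP line and 0 in each of the other libraries, so the sums are not on an equal footing.

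Promoter sequence from RefSeq (build GRCm38.p6) was taken for Zscan4c, for Duxf3 and for a member of each of 2 other families with high ratios, Gm20765 and Gm21761, because the motif GATTNAATC is the core of sequences bound by Dux. The 250 bases before each start are printed, and capitals mark GATTNAAT on either strand, extended to GATTNAATC where the next base allows; this shorter form was chosen after the sequences had been seen. They lie at chr7:11005495-11005744 (plus strand) for Zscan4c, chr10:58233090-58233339 (minus) for Duxf3, chr10:104185283-104185532 (plus) for Gm20765 and chr13:119913469-119913718 (minus) for Gm21761.
Zscan4c: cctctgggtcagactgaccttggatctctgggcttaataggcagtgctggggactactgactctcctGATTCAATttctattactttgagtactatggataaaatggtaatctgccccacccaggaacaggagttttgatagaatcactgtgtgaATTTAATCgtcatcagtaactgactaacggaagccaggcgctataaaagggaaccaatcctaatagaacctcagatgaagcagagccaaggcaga
Duxf3: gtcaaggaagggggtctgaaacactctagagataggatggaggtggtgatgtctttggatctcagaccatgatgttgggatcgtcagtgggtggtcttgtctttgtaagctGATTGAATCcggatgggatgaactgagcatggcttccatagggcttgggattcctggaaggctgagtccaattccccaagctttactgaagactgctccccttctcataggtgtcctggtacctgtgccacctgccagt
Gm20765: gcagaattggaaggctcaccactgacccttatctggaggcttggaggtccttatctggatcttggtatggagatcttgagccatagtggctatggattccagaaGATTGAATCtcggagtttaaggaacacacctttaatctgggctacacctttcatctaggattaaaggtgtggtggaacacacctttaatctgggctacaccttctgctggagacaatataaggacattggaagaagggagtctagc
Gm21761: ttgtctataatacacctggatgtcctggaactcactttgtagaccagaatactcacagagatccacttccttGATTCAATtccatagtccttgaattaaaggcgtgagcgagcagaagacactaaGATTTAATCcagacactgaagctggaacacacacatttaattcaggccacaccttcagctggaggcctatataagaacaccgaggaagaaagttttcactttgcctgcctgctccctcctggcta
The full motif begins 146 bases before the start in Gm20765, 139 in Duxf3 and 125 in Gm21761, and the shorter form begins 183 and 95 bases before the start in Zscan4c.

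Over the full windows of 300 bases (250 before and 50 after the start, both strands), GATTNAATC was found in 8 of the 35 genes 16-fold or more higher that had a promoter in the table (22.9%), in 9 of 480 genes 4-fold or more higher (1.88%), in 0 of 54 genes 4-fold or more lower, in 0.361% of all measured genes and in 0.307% of all 27025 promoters. These 8 genes are not independent: 6 are copies on chromosome 10 whose windows hold 2 distinct sequences that are at least 99.7% identical, and the other 2 are the chromosome 13 genes AF067061 and Gm21761, at 88.3% identity. The shorter GATTNAAT was found in 37.1% of the 16-fold higher genes, 3.54% of the 4-fold higher genes, 1.69% of all measured genes and 2.28% of all promoters. Of its 13 genes 16-fold or more higher, 8 lie on chromosome 10 with 3 distinct sequences and 2 on chromosome 13. The other 3 are Zscan4c, Zscan4d and Zscan4f. This form was chosen after the printed promoters had been seen, Zscan4c among them, so its share supports nothing by itself. TGCACAC, a sequence bound by Zscan4, was in 5.71% of the 16-fold higher genes, 3.33% of the 4-fold higher genes, 5.56% of the 4-fold lower genes and 5.02% of all promoters. The repeat CACACACA, which overlaps it in its last letters, was in 2.86%, 2.29%, 5.56% and 4.69% in the same order. A match is a description of the letters and not a binding site. Promoters on chromosome 18 were not used.

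Many of the genes with high ratios were neighbouring copies of a family. Of 65 annotated genes 16-fold or more higher, 40 lay within 1 Mb of another such gene, whereas 6 of 58 genes 16-fold or more lower did. The 40 include 4 genes on chromosome 11, named here after their values were seen, that are not copies of each other: Taf15 lies near Aatf, and Stra13 near Wdr45b. Psmc2 and Ipo7, with log2 ratios of 6.29 and 5.76, had no such neighbour. Chromosome 10 held 17 of the 40, all between 100330540 and 104196522 (GRCm38), at 0.455 to 6.87 TPM in reporter-negative and 33.5 to 357 TPM in reporter-positive cells. Their summed level was 44.5 and 2790 TPM, against 32.2 and 6467 TPM in the fusion line. Gm20765 was at 5.64 and 357 TPM, Gm21312 at 5.74 and 357 TPM and Gm6763 at 4.04 and 265 TPM. The 17 fall into separate groups, since none lies between Gm4781, ending at 100397070, and Gm21293, starting at 104142987. Among the 8 with GATTNAAT, the lowest identity of a promoter window to that of Gm20765 was 26%. Copies within a group are close in sequence, and reads cannot be divided between them with certainty.

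Chromosome 13 held 6, which include the 2-cell-stage variable group genes. Their summed level was 15.7 TPM in reporter-negative and 926 TPM in reporter-positive cells, and 15.2 and 2054 TPM in the fusion line. Gm21761 was at 8.75 and 471 TPM and Gm20767 at 3.01 and 219 TPM. The 2-cell genes Tcstv3 and AF067061, named after their values were seen, were also in this set, Tcstv3 at 0.884 and 44.0 TPM and AF067061 at 1.18 and 46.5 TPM. All 4 were higher still in reporter-positive cells of the fusion line, where Gm20767 was at 664 TPM and Tcstv3 at 141 TPM.

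Chromosome 12 held 6, of a family that includes genes similar to the translation initiation factor Eif1a, at 0.122 to 2.44 TPM in reporter-negative and 59.6 to 233 TPM in reporter-positive cells. Here the copies listed at high levels differed between the lines. The summed level of the 6 did not differ by much: 7.58 and 634 TPM in the GFP line, and 11.4 and 513 TPM in the fusion line. The 6 were selected by their ratios in the GFP line, so this comparison is uneven, and other copies are not in the sum. Gm8332 was at 2.44 and 233 TPM in the GFP line but at 1.87 and 2.84 TPM in the fusion line. Gm5039, chosen after its values were seen, was at 1.60 and 97.6 TPM in the GFP line but at 3.43 and 1.43 TPM in the fusion line. Gm2056 (0.122 and 60.2 TPM, and 0.745 and 130 TPM in the fusion line) and Gm6803 (0.302 and 73.8 TPM, and 0.702 and 157 TPM) were high in reporter-positive cells of both lines. A difference in which copies are transcribed and a different division of reads between similar copies cannot be told apart here.

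The list of 2C-like markers has 47 entries, of which 43 had a row. Of these, 13 were under 5 TPM in both libraries, 14 were listed at 0 in reporter-negative cells, and 16 were measured. All 16 were 2-fold or more higher, with a median log2 ratio of 5.51. This count supports nothing by itself, since 12 of the 16 were under 5 TPM in reporter-negative cells and passed through the reporter-positive library; the 4 that did not were Gm4340, Gm20765, Gm21312 and Gm21761. Against the reporter-negative library of the fusion line the 15 of these genes above 0 in it had a median of 5.13, and the 14 measured in the fusion line had a median of 6.25 there. The other 2 were Tdpoz4, listed at 0 in the reporter-negative and at 16.7 TPM in the reporter-positive library of the fusion line, and Gm5039, under 5 TPM in both. Summed over the list, the level was 44.2 TPM in reporter-negative and 3054 TPM in reporter-positive cells, against 46.2 and 6290 TPM in the fusion line. Rows listed at 0 enter these sums as 0, and in the GFP line they were 24 in reporter-negative and 1 in reporter-positive cells. The list was written with earlier results of these data known, and the cells were sorted on a Zscan4c promoter. The sums are therefore a description and no independent check of the label. In bulk RNA a higher sum can be more cells in the state or more RNA per cell, and the 2 cannot be told apart.

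**Figure D2:**
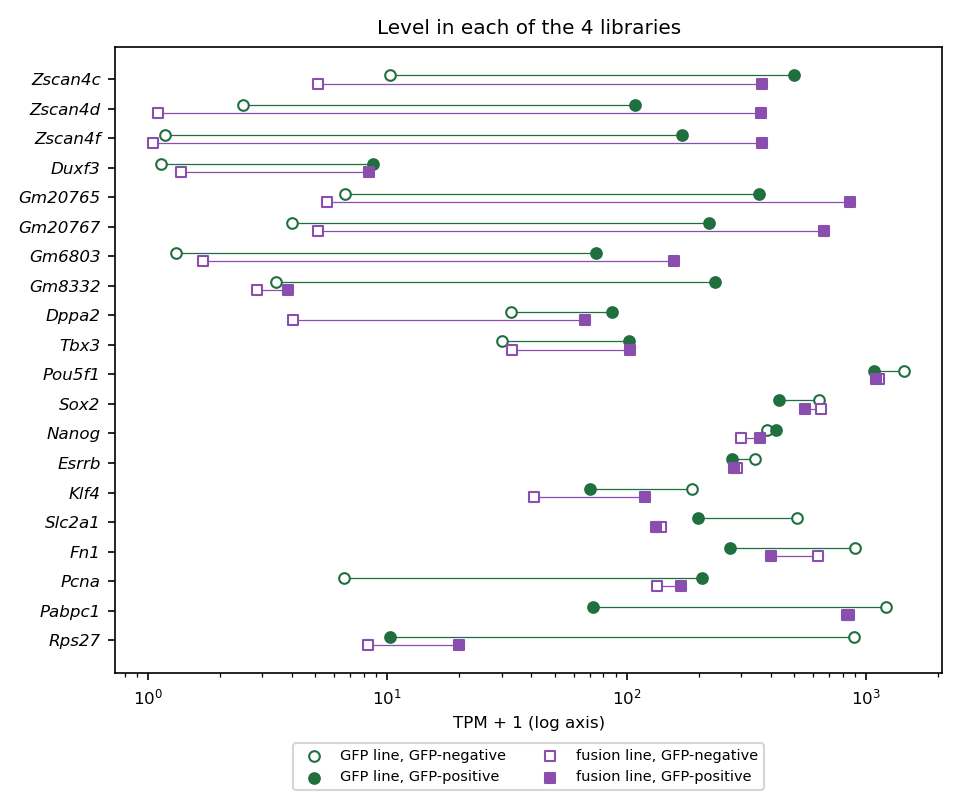
TPM + 1 (log axis) of 20 genes in the 4 libraries, with circles for the GFP line, squares for the fusion line, open symbols for reporter-negative and filled symbols for reporter-positive cells. The Zscan4 genes, Gm20765, Gm20767 and Gm6803 are high in both reporter-positive libraries, Gm8332 is high in that of the GFP line, and Pcna and Rps27 differ because the reporter-negative library of the GFP line lies away from the other 3.

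Some genes outside the 2-cell families had the same direction in both lines. For 161 of the 1539 higher genes (10.5%), both reporter-positive libraries were 2-fold or more above both reporter-negative libraries, and for 55 of the 806 lower genes (6.82%) both were 2-fold or more below. The 161 include the 3 measured Zscan4 genes, Duxf3 and 15 of the 2C-like markers. Psmc2, a proteasome ATPase, had the highest ratio of the proteasome list, whose median log2 ratio was -0.00084. It was at 0.348 TPM in reporter-negative and 105 TPM in reporter-positive cells, and at 0.0310 and 96.6 TPM in the fusion line. Whether Psmc2 transcripts outside those listed were present cannot be read from the tables. The stress-inducible chaperone genes Hspa1a (5.45 and 63.4 TPM, and 2.58 and 23.8 TPM in the fusion line) and Hspa1b (7.68 and 47.4 TPM, and 2.86 and 25.0 TPM) were higher, and the constitutive Hspa8 (627 and 139 TPM, and 555 and 123 TPM) was lower. Hspa1a and Hspa1b are near-identical neighbours, and their sum was 13.1 and 111 TPM in the GFP line and 5.45 and 48.8 TPM in the fusion line.

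Transcription regulators were among these genes as well. Tbx3, a T-box factor of naive pluripotency, was at 29.1 and 101 TPM in the GFP line and 32.0 and 102 TPM in the fusion line. Dppa2, a chromatin factor upstream of Dux, was at 31.8 and 85.6 TPM, and at 3.02 and 66.1 TPM in the fusion line. Nelfa, a subunit of the negative elongation factor that pauses RNA polymerase II, was at 38.6 and 114 TPM, and at 42.5 and 224 TPM. Ctr9, a subunit of the PAF1 elongation complex, was at 22.6 and 97.8 TPM, and at 21.6 and 87.0 TPM. Sox3, a SoxB1 factor, was at 4.69 and 29.2 TPM, and at 2.25 and 24.9 TPM. The pro-apoptotic Trp53 target Pmaip1 was at 2.82 and 13.3 TPM, and at 2.06 and 9.10 TPM. In the lower direction, the splicing factor Snw1 was at 39.5 and 1.93 TPM, and at 41.1 and 3.28 TPM in the fusion line, and the gene of the macroH2A histone, H2afy, was at 43.7 and 12.2 TPM, and at 56.4 and 10.6 TPM. These genes are grouped by this pattern, so their shared direction is a description.

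In most of the other genes 2-fold or more apart, 1 library lay away from the other 3. For 1059 of the 1539 higher genes (68.8%), the reporter-negative library of the GFP line was 2-fold or more below each of the other 3, and for 442 of the 806 lower genes (54.8%) it was 2-fold or more above each of them. The reporter-positive library was the one apart for 35 higher and 87 lower genes. The replication clamp Pcna was at 5.57 TPM in reporter-negative cells and at 205, 133 and 168 TPM in the reporter-positive, fusion-line reporter-negative and fusion-line reporter-positive libraries. The nuclear import receptor Ipo7 was at 0.402 TPM there and at 75.1, 55.2 and 77.4 TPM in the others. Rps27 showed the reverse, at 887 TPM in reporter-negative cells and at 9.21, 7.30 and 18.9 TPM in the others, while the near-identical Rps27rt stood at 186, 184, 149 and 182 TPM. With the reporter-negative library of the fusion line as reference, 670 genes were higher and 349 lower among 10649 measured.

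Genes in which the reporter-positive library of the GFP line was the one apart included several very abundant ones. Pabpc1, the main cytoplasmic poly-A binding protein, was at 1212 TPM in reporter-negative and 71.5 TPM in reporter-positive cells, and at 829 and 852 TPM in the fusion line. Pfn1, the actin-binding profilin, was at 899 and 49.6 TPM, and at 604 and 595 TPM. Tubb2b, a beta-tubulin, was at 314 and 47.6 TPM, and at 282 and 265 TPM. The glycolytic gene Pfkl was at 361 and 105 TPM, and at 292 and 266 TPM. Eno1b, a copy of the enolase gene Eno1, had the lowest ratio of all protein-coding genes, at 776 and 3.31 TPM, and at 479 and 455 TPM in the fusion line. Eno1 and Eno1b together were at 1362 and 426 TPM in the GFP line and 1344 and 1281 TPM in the fusion line, so the sum over both copies was lower as well.

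The higher and lower genes differed in length. Among genes whose longest listed transcript is 1 kb or shorter, 9.49% were 2-fold or more higher and 19.4% lower. The shares were 12% and 6.9% at over 1 to 2 kb, 18.9% and 4.75% at over 2 to 4 kb, 28% and 5.12% at over 4 to 8 kb and 29.9% and 5.9% over 8 kb. The median log2 ratio went from -0.10 in the shortest to 0.32 in the longest class. Listed zeros in the reporter-negative library followed length as well, from 4.57% of genes at 5 TPM or more in the shortest class to 26.9% at 4 to 8 kb, against 1.3% and 1.43% in the fusion line's reporter-negative library. With the latter library as reference the class medians lay between 0.08 and 0.18. The median length of the longest transcript was 3476 bases in higher genes with the reporter-negative library alone low, 536 bases in lower genes with it alone high and 2252 bases where both reporter-positive libraries were high. Whether length, RNA quality or depth set these shares was not tested.

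**Figure D3:**
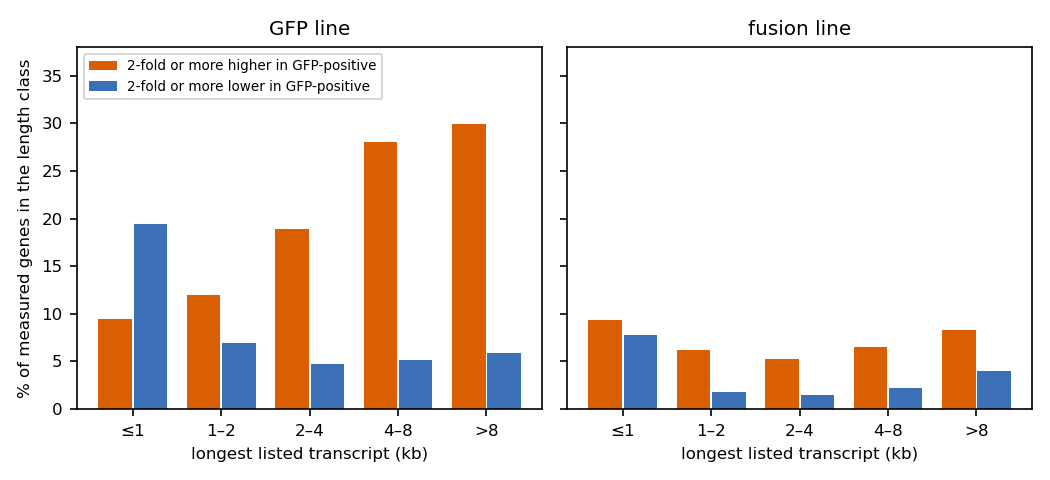
Percentage of measured genes 2-fold or more higher (orange) or lower (blue) in reporter-positive cells, by the length of the longest listed transcript, in the GFP line (left) and the fusion line (right). In the GFP line the higher share goes from 9.49% in the shortest class to 29.9% in the longest, and in the fusion line it stays between 5.24% and 9.39%.

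Gene types differed as well. Of 6624 protein-coding genes 1339 were higher and 327 lower. Of 133 listed miRNA genes 89 were lower and 6 higher, with a median level of 8.75 TPM in reporter-negative and 1.13 TPM in reporter-positive cells, against 1.14 and 1.37 TPM in the fusion line. Of 121 snoRNA genes, which guide modification of ribosomal RNA, 62 were lower and 23 higher, with medians of 7.84 and 4.13 TPM against 2.88 and 3.13 TPM. Of 34 snRNA genes, whose RNAs form the spliceosome, 26 were higher, with medians of 1.98 and 8.62 TPM against 13.9 and 4.96 TPM in the fusion line, where the ratio had the opposite sign. These are short RNAs or precursors seen in poly-A selected, random-primed libraries, and many passed the minimum through the library in which they were high. On the X chromosome 9.48% of 327 genes were higher and 11.9% lower.

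Pluripotency factors were abundant in both populations. Pou5f1, the central POU factor of the state, was at 1447 TPM in reporter-negative and 1075 TPM in reporter-positive cells, and at 1138 and 1103 TPM in the fusion line. Its partner Sox2 was at 638 and 434 TPM, the homeobox factor Nanog at 387 and 419 TPM and the orphan receptor Esrrb at 342 and 275 TPM. Of 17 measured core pluripotency genes 0 were higher and 1 was lower, beside 17.3% and 9.05% of all genes: the Nodal co-receptor Tdgf1, at 647 and 280 TPM. The list's median log2 ratio was -0.40 in the GFP line, 0.05 against the reporter-negative library of the fusion line and 0.01 in the fusion line. Tdgf1 was at 228 and 280 TPM there, so its reporter-positive levels were alike and its reporter-negative level in the GFP line was the one that was high.

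Of 24 measured naive pluripotency genes 5 were higher and 1 lower, beside 17.3% and 9.05% of all genes. Their median was -0.21, and 0.15 with the fusion-line reference. Klf4, a zinc finger reprogramming factor, was at 187 TPM in reporter-negative and 69.5 TPM in reporter-positive cells, whereas in the fusion line it was at 40.1 and 118 TPM, the opposite order. The higher genes were Tbx3, Dppa2, the lysosomal enzyme Manba (12.4 and 32.5 TPM), the FGF receptor Fgfr1 (11.8 and 28.2 TPM) and Fbxo15 (163 and 359 TPM), the last named after its values were seen. Of 17 formative and primed genes 2 were higher and 1 lower, with a median of -0.41. Sox4 was the lower gene, at 13.04 and 5.36 TPM, and at 4.54 and 4.98 TPM in the fusion line. Dnmt3a, a de novo DNA methyltransferase, was at 6.25 and 17.9 TPM in the GFP line but at 15.2 and 10.5 TPM in the fusion line. Dppa5a, an RNA-binding protein of pluripotent cells, was at 2729 and 2291 TPM in the GFP line but at 41.4 and 2280 TPM in the fusion line, where the reporter-negative library was the one apart.

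Of 33 measured genes known to promote or restrain entry into the 2C-like state, 24 were within 2-fold, a share near the 73.7% of all genes, 7 were higher and 2 lower, with a median of 0.07. Setdb1, the H3K9 methyltransferase that silences retroelements, was at 2.77 and 42.1 TPM, and Smarca5, a chromatin remodeller, at 6.91 and 45.6 TPM. In both cases the fusion-line libraries lay near the reporter-positive value, at 37.7 and 49.5 TPM for Setdb1 and 30.7 and 48.2 TPM for Smarca5. Ep400, a subunit of the TIP60 complex, was at 67.1 and 9.04 TPM, with 6.28 and 8.67 TPM in the fusion line. Tet1, which oxidises methylcytosine, was at 21.96 and 91.4 TPM in the GFP line and at 34.6 and 20.4 TPM in the fusion line.

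Oocyte and germ cell genes were thinly measured. Of 22 entries for the subcortical maternal complex and oocyte genes, 8 had a row and 4 were measured, with 0 higher and 0 lower and a median of -0.16. Ooep was at 56.6 and 30.6 TPM and Khdc3 at 32.7 and 29.7 TPM, and both were lower in the fusion line, at 4.03 and 3.21 TPM and at 6.81 and 5.43 TPM, so here the lines differed more than the sorted populations. Of the meiosis and germ cell list 3 genes were measured and 6 were listed at 0 in reporter-negative cells. Of the 3 measured, 1 was 2-fold or more higher and 0 lower. That gene was Rec8, the meiotic cohesin, at 2.50 and 11.9 TPM, and at 7.80 and 9.98 TPM in the fusion line. For Rec8 the reporter-negative library of the GFP line alone was low. Tex19.1 was at 30.9 and 58.0 TPM (36.2 and 45.9 TPM in the fusion line) and Stag3 at 22.3 and 23.4 TPM (11.6 and 33.4 TPM).

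Among lists with 10 or more measured genes, signalling readouts had the lowest medians. The ERK and Wnt target genes had a median log2 ratio of -0.62, with 1 of 13 higher and 3 lower, and the immediate early genes -0.48, with 0 of 12 higher and 2 lower. The Wnt effector Tcf7 was at 32.8 and 8.96 TPM (17.0 and 3.15 TPM in the fusion line), the Wnt deacylase Notum at 25.3 and 9.99 TPM (10.5 and 9.45 TPM) and the AP-1 factor Junb at 19.04 and 8.51 TPM (8.69 and 8.36 TPM). Of these 3, Tcf7 alone was 2-fold or more lower in the fusion line as well. Id3, a BMP target, was at 4.83 and 12.9 TPM. With the reporter-negative library of the fusion line as reference the list medians became -0.06 and 0.25.

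The glycolysis list had a median of -0.42 in the GFP line, with 1 of 24 higher and 3 lower, and -0.11 with the fusion-line reference. The glucose transporter gene Slc2a1 was at 512 and 198 TPM (138 and 131 TPM in the fusion line), and Aldoa, the muscle-type aldolase, at 3311 and 1539 TPM (1828 and 2363 TPM). Pdk1, which inhibits pyruvate dehydrogenase, was the higher gene, at 4.54 and 23.6 TPM (18.2 and 29.3 TPM in the fusion line). Gapdh was at 115 and 72.9 TPM. The hypoxia list had 3 of 20 higher and 1 lower with a median of -0.14. In it the collagen prolyl hydroxylase P4ha2 was at 12.3 and 67.6 TPM, and at 21.2 and 116 TPM in the fusion line.

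Of 33 measured genes on the mitochondrial chromosome, 8 (24.2%) were 2-fold or more higher and 1 (3.03%) was lower. Over all measured genes the shares were 17.3% and 9.05%. The 15 in the list of mitochondrially encoded genes all lay within 2-fold. Their median was 0.29 in the GFP line, 0.34 with the fusion-line reference and 0.49 in the fusion line. Their summed level was 10322 TPM in reporter-negative and 12494 TPM in reporter-positive cells, and 10711 and 15366 TPM in the fusion line. mt-Nd6, a complex I subunit on the light strand, was at 311 and 499 TPM, and at 287 and 959 TPM in the fusion line. The sign of this median was the same in every setting tried, with values from 0.29 to 0.44. A stable sign was not particular to this list. The glycolysis, formative and primed, cholesterol synthesis and nucleolar lists, among others, also kept theirs. The 75 nuclear genes of oxidative phosphorylation had a median of -0.12, with 2 higher and 2 lower. Atp5f1, an ATP synthase subunit, was at 6.58 and 139 TPM in the GFP line and at 117 and 5.93 TPM in the fusion line, so that 1 library of each line was low in opposite populations. The complex I gene Ndufc1 was at 33.1 and 0.805 TPM, against 21.8 and 26.9 TPM.

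Among lists with 10 or more measured genes other than the 2C-like markers, those for heterochromatin, histones, G2 and M phase and repair had the 4 highest medians, and each was nearer to 0 with the other reference. G2 and M phase genes had a median of 0.50, with 11 of 36 higher and 0 lower, and for 9 of the 11 the reporter-negative library of the GFP line alone was low. The median was 0.12 against the reporter-negative library of the fusion line and -0.06 among genes whose transcripts are all 2 kb or shorter. The centromere protein gene Cenpf was at 0.701 and 24.0 TPM with 22.1 and 25.5 TPM in the fusion line, and the checkpoint kinase gene Bub1 at 8.58 and 53.0 TPM with 52.7 and 60.1 TPM. S phase genes had a median of -0.0060, with 9 of 39 higher and 1 lower, and 8 of the 9 were of this kind, among them Pcna, the origin recognition gene Orc1 (2.94 and 41.3 TPM) and the polymerase gene Pola1 (0.283 and 26.1 TPM).

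Histone genes had a median of 0.55, with 10 of 28 higher and 3 lower, and 0.04 with the fusion-line reference. Hist1h3b was at 3.15 and 12.5 TPM and Hist2h2aa1 at 65.0 and 0.463 TPM, against 4.09 and 1.04 TPM in the fusion line. Most replication-dependent histone mRNAs end without a poly-A tail, so their levels in poly-A selected RNA are partial. Heterochromatin and retroelement silencing genes had a median of 0.56, with 10 of 22 higher and 1 lower. Morc3, a silencing ATPase, was at 2.03 and 41.0 TPM with 36.8 and 42.0 TPM in the fusion line, and Cbx1, a heterochromatin protein 1, at 8.74 and 69.4 TPM with 67.4 and 57.2 TPM. The median was 0.12 with the fusion-line reference. Repair genes had a median of 0.30, and -0.07 with the fusion-line reference. Of 26 repair genes 5 were higher and 2 lower, beside 17.3% and 9.05% of all genes. The Fanconi gene Fanci was at 5.65 and 35.3 TPM with 32.6 and 32.8 TPM in the fusion line. Each of these 3 medians had the opposite sign in at least 1 of the settings tried.

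The remaining lists had medians between -0.30 and 0.13. Telomere maintenance had 0 of 14 higher and 0 lower with a median of -0.0058, and the shelterin gene Tinf2 was at 19.2 and 29.6 TPM. The DNA methylation and Tet list had 3 of 16 higher and 1 lower (median -0.02). Heat shock and chaperone genes had 3 of 25 higher and 1 lower (0.08), integrated stress response genes 3 of 22 and 0 (0.03) and Trp53 pathway genes 2 of 19 and 2 (-0.12). In the stress response, Ddit3 was at 0.527 and 21.5 TPM with 48.8 and 38.4 TPM in the fusion line, while the ER stress kinase Eif2ak3 was at 6.07 and 16.3 TPM with 1.23 and 14.6 TPM there. Splicing factors had 2 of 53 higher and 3 lower (-0.02), translation factors 4 of 49 and 3 (-0.06), proteasome and ubiquitin genes 3 of 39 and 2 (-0.00084), nucleolar genes 1 of 29 and 1 (0.13) and Pol II pausing and elongation genes 6 of 23 and 2 (0.05). Cholesterol synthesis had 2 of 19 higher and 0 lower (-0.28), serine, one-carbon and nucleotide synthesis 2 of 30 and 0 (-0.03), imprinted genes 1 of 16 and 1 (-0.30), and cytoskeleton genes 0 of 27 and 4 (-0.20).

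The 88 measured ribosomal protein genes had a median of -0.07, with 2 higher and 3 lower. The lower ones were Rps27, Rps13 (297 and 3.41 TPM, with 94.1 and 188 TPM in the fusion line) and Rps28 (1395 and 68.1 TPM, with 140 and 67.6 TPM). The higher ones were Rpl23 (19.3 and 281 TPM, with 550 and 372 TPM) and Rps15a (76.2 and 394 TPM, with 396 and 208 TPM). Ribosomal protein genes have many processed copies, and the division of reads among them is uncertain. Basement membrane and collagen genes had 5 of 24 higher and 3 lower, beside 17.3% and 9.05% of all genes, with a median of -0.31. Fn1, the matrix glycoprotein fibronectin, was at 902 and 271 TPM and at 630 and 402 TPM in the fusion line, whereas the integrin subunit gene Itgb1 was at 2.49 and 41.9 TPM with 43.4 and 53.8 TPM.

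**Figure D4:**
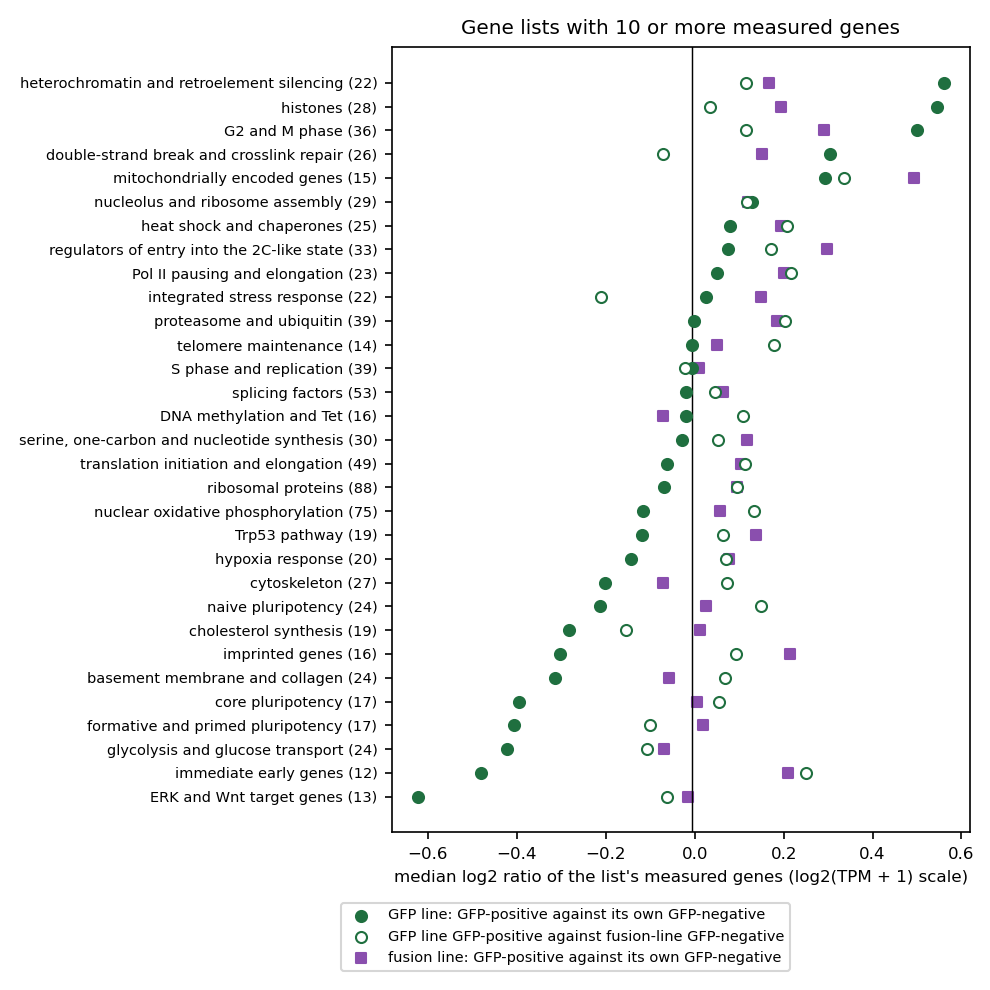
Median log2 ratio of each gene list with 10 or more measured genes (number in brackets), without the 2C-like markers, for the GFP line (filled circles), for the reporter-positive library of the GFP line against the reporter-negative library of the fusion line (open circles) and for the fusion line (squares). The filled circles run from -0.62 to 0.56, and the open circles, which share the reporter-positive library with them, lie between -0.21 and 0.34.

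Markers of other cell types were checked in the same libraries. Of 15 primitive endoderm entries 6 had a row, and Sox7 and Foxa2 were listed at 0 in both libraries of the GFP line. The measured ones were the secreted matrix gene Sparc (249 and 209 TPM) and the laminin gene Lamb1 (13.4 and 33.0 TPM). Of the trophectoderm list 3 genes were measured, with 0 higher and 1 lower: Tead4, a factor also found in ESCs, was at 27.2 and 5.39 TPM, Tfap2c was at 39.4 and 24.9 TPM, and Elf5 was listed at 0 in both libraries. No mesoderm marker was measured. Of the neural list 3 were measured with 0 outside 2-fold (Tubb3 at 54.9 and 55.5 TPM, Nes at 17.1 and 12.7 TPM and Sox1 at 6.65 and 3.53 TPM), and of the fibroblast list 1 (Twist1, 9.03 and 6.19 TPM), with the collagen genes Col1a1 and Col1a2 listed at 0 in both libraries. Summed over each list the levels in reporter-negative and reporter-positive cells were 262 and 244 TPM for primitive endoderm, 78.6 and 61.8 TPM for trophectoderm, 0 and 12.99 TPM for mesoderm, 79.0 and 73.4 TPM for the neural list and 9.03 and 32.4 TPM for fibroblasts. Rows listed at 0 enter these sums as 0. Several markers named after their values were seen were listed at 0 in reporter-negative cells and low in reporter-positive cells: the keratin genes Krt8 and Krt18 at 8.51 and 5.34 TPM, Gsc at 9.93 TPM, Col5a1 at 12.6 TPM and Thy1 at 11.9 TPM. In the fusion line Krt18, Gsc and Col5a1 were at 5.42, 14.4 and 9.23 TPM in reporter-negative cells, Thy1 was listed at 0 there and at 7.27 TPM in reporter-positive cells, and Krt8 was listed at 0 in both. Other markers, also named after their values were seen, were under 5 TPM in both libraries of the GFP line. Gata4 and Sox17 were listed at 0 in reporter-negative cells and at 1.64 and 0.578 TPM in reporter-positive cells. So were Eomes, Tfap2a, Esx1 and Pdgfrb, at 2.64, 3.67, 2.42 and 1.58 TPM. Gata2 was at 0.314 and 2.17 TPM. The part of other cell types in the results was not tested.

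Set side by side, the lines overlapped in part. In the fusion line 719 of 10775 genes (6.67%) were 2-fold or more higher in reporter-positive cells and 324 (3.01%) lower. The 198 genes higher in both lines were 12.9% of those of the GFP line and 27.5% of those of the fusion line. The 67 lower in both were 8.31% and 20.7%. Against these, 59 genes were higher in the GFP line and lower in the fusion line, and 60 the reverse. Over the 8253 genes measured in both lines, the ratios had a Pearson correlation of 0.26 and a Spearman correlation of 0.22 across genes, which are not independent replicates, and a standard deviation of 1.16 in the GFP line and 0.854 in the fusion line. Of 64 genes 16-fold or more higher in the GFP line and measured in both, 42 were 2-fold or more higher in the fusion line and 39 had a larger ratio there.

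**Figure D5:**
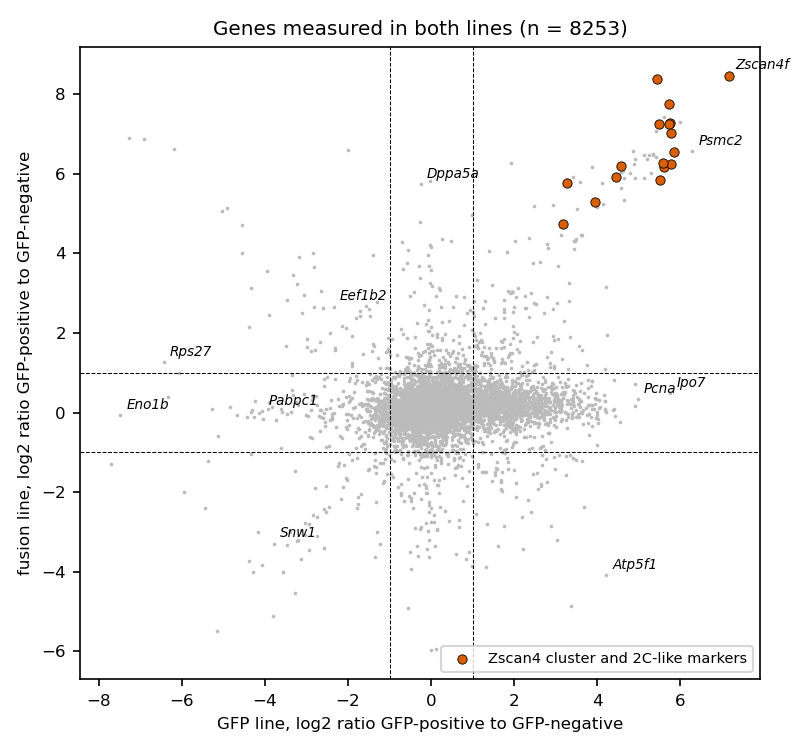
Log2 ratio of reporter-positive to reporter-negative cells in the GFP line (x axis) and the fusion line (y axis) for the 8253 genes measured in both, with dashed lines at 2-fold. The Zscan4 genes and 2C-like markers (orange) sit at the upper right (Tdpoz4 and Gm5039, which were not measured in the fusion line, are not plotted), while Ipo7, Pcna, Eno1b and Pabpc1 lie near 0 on the y axis.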

How the data were processed

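Poly-A selected, random-primed RNA was sequenced from 4 sorted populations, 1 library each. The deposited tables give TPM per transcript as computed by the authors. Tools in the submitters' processing notes are CASAVA, HISAT2 2.1.0 and StringTie 1.3.5, and the build is GRCm38 (mm10). Options and annotation release: not given in the sources used here. TPM were summed per gene symbol over 58853 listed transcripts. Lengths, types and positions came from GENCODE M21, which 58388 of them matched, and promoters from RefSeq. Genes at 5 TPM or more in either library of the GFP line and above 0 in both were compared as log2(TPM + 1) ratios, and counted when 2-fold or more apart. The step was checked on simulated data. With 1 library per group no test was run, and TPM keep no depth.

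The genes compared and the 41 lists (1257 entries, 94 without a row) were chosen with earlier results of these data known. Ribosomal proteins were taken by symbol without the S6 kinases. The genes named are the 15 highest and lowest protein-coding ratios, the 10 highest and lowest at 50 TPM or more, up to 5 of each list with the largest ratios, the Zscan4 genes, Duxf3 and a fixed set of pluripotency and reference genes, and the 8 largest differences between the lines each way. Exceptions are said to be named after their values were seen. Also outside these rules are Tdpoz4, Gm4340, Eno1, Rps27rt, Sox7, Foxa2, Elf5, Col1a1, Col1a2 and the boundary genes Taf13 and 5730507C01Rik. Alternatives were pseudocounts of 0.1 and 5 TPM, other minimums, zeros kept, median-ratio and quantile scaling, the fusion line's GFP-negative library as reference, the highest transcript per symbol, and short or protein-coding genes. Python 3.11.15, pandas 2.3.3 and NumPy 2.4.6 were used.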

Additional observations from a re-analysis of the deposited data

Results flagged for a closer look

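For 7 of the genes named, the ratio between reporter-positive and reporter-negative cells was 2-fold or more in both lines but in opposite directions, with 1 library per population and so with no test of the difference. In the GFP line the log2 ratio was 4.21 for the ATP synthase gene Atp5f1, 3.49 for the transcription factor gene Tcf12, -1.42 for Klf4, -2.34 for the elongation factor gene Eef1b2, -6.44 for Rps27, -2.60 for the pyrimidine-catabolism gene Dpys and -2.05 for the histone gene Hist3h2a. Tcf12 was at 0.103 TPM in reporter-negative and 11.4 TPM in reporter-positive cells of the GFP line and at 10.4 and 3.98 TPM in the fusion line. Eef1b2 was at 507 and 99.1 TPM, and at 59.7 and 383 TPM in the fusion line. Dpys was at 10.0 and 0.814 TPM, and at 0.803 and 10.1 TPM. Hist3h2a was at 8.04 and 1.19 TPM, and at 1.05 and 8.03 TPM. Cdc45, a replication helicase factor, was at 2.25 and 5.41 TPM in the GFP line and at 50.9 and 2.58 TPM in the fusion line.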

How the results depend on the processing

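No paired analysis was possible because each population is 1 library. The counts of 1539 higher and 806 lower genes were within 1.5 times of these values with pseudocounts of 0.1 and 5 TPM, with other minimums in either library or as a mean, and with median-ratio scaling. Higher genes numbered 3676 with zeros kept and 413 among genes of 2 kb or shorter, and lower genes 327 among protein-coding genes. The pairs of higher and lower counts were 848 and 2245 after quantile normalization, 733 and 1382 by the highest transcript, 670 and 349 with the fusion line's reporter-negative reference and 620 and 268 with 5 TPM required in both libraries, a setting chosen after seeing the data. The median log2 ratio of 2C-like markers was 3.93 with a pseudocount of 5 TPM, 4.73 after quantile normalization and 4.85 with the fusion-line reference, and the median log2 ratio of Zscan4 cluster genes 6.61 with the fusion-line reference and 6.37 by the highest transcript. These fusion-line reference medians cover the genes measured with that reference. The 5.13 given earlier for 2C-like markers covers those measured in the GFP line, so the sets of genes differ. With the fusion-line reference, among named genes 2-fold or more apart, the log2 ratio changed sign for Ep400 (0.46), Klf4 (0.78), Tdgf1 (0.30), Sox4 (0.20), Ier3 (0.12), Ddit3 (-1.15), Slc2a1 (0.52), Ndrg1 (0.64), Ndufs1 (-0.44), Tm7sf2 (-0.22), Itgb1 (-0.050), Prim2 (-0.022), Hist1h1a (-0.19), Hells (-0.041), Fancg (-0.23), Eef1b2 (0.72), Eef1a1 (-0.017), Rps27 (0.30), Rpl23 (-0.97) and Rps15a (-0.0084), and by the highest transcript the log2 ratio of Dhcr7 was -0.098. Named genes within 2-fold also changed sign with the fusion-line reference, among them Dppa5a (5.76), Vim (4.38), Cdc45 (-3.02), Ooep (2.65), Khdc3 (1.97) and Bnip3 (0.60). The cause was not tested. Depth is unknown, and genes listed at 0 set what could be compared.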
